A study of Mus musculus with 28 samples.

Results

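Sarcomere and muscle energy genes are a list of 45 genes whose products build the contractile apparatus of striated muscle, move its calcium or supply its energy, with the myosin chains left out. Members were the probes whose symbol in the platform annotation was one of these 45 names. The arrays carried 61 probes for 42 of them, and 51 of these probes, for 39 members, gave a signal with a detection p-value below 0.01 on at least 6 of the 28 arrays and were tested. The whole series had 9045 genes past the same filter. Neb, Smpx and Cacna1s had no probe under that symbol, Myom2 and Trdn were detected on 0 arrays, and Phkg1 was detected on 3 arrays, so these 6 members are named and not described further.

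The samples were total RNA of dorsal skin from mice of a mixed C57/BL6;129Ola background, each hybridised to 1 Illumina BeadChip array. The groups were 6 P15 mutants and 6 P15 controls, 15 days old, and 6 P10 mutants and 10 P10 controls, 10 days old. Mutants carried K14-cre and the conditional allele Gab1fl, and the labels give the comparison mice only as controls. The K14 promoter is active in basal keratinocytes of epidermis and hair follicle, so Cre in these mice is directed to the epithelium and not to muscle. Gab1 itself, an adaptor of receptor tyrosine kinase signalling, had a mean normalized log2 signal of 10.28 ± 0.23 on P15 mutant arrays against 11.60 ± 0.20 on P15 control arrays (SD, n = 6 each), and of 9.99 ± 0.12 on P10 mutant arrays against 11.33 ± 0.24 on P10 control arrays (SD, n = 6 and 10). Whether a group's arrays stem from separate animals is not in the labels, so the spread that enters a p-value is that between samples and may be technical.

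In mouse dorsal skin a thin sheet of striated muscle, the panniculus carnosus, lies under the fat layer, and a piece of skin can carry more or less of it. In each sarcomere, thin filaments of actin with tropomyosin and troponin slide along thick filaments of myosin between Z-discs, titin spans from Z-disc to M band, and calcium released from the sarcoplasmic reticulum binds troponin C to start contraction. Creatine kinase, glycogen breakdown, glycolysis and muscle forms of cytochrome c oxidase provide the ATP. Fast and slow fibres use different genes for several of these parts.

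The 28 arrays lay on 4 slides. P10 mutants 1 to 3 shared slide 1 with P10 controls 5 to 7, P10 mutants 4 to 6 shared slide 2 with P10 controls 8 to 10, and slides 3 and 4 each held 3 P15 mutants, 3 P15 controls and 2 of the P10 controls 1 to 4. The mutants of a slide filled its array positions A, B and C, and controls of equal age filled D, E and F, so genotype and position cannot be told apart. From 8836 to 13610 probes were detected per array, with the lowest number and the highest median raw signal, 172, on P15 mutant 5. Median raw signals were 105 to 133 on P10 mutant arrays and 83.3 to 113 on the P10 control arrays of the same slides. The part of these differences in brightness in the results was not tested. For arrays, their number limits the precision.

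Within each group the members' signals differed widely between arrays. The level of an array was taken as the median, over the 39 tested members, of the log2 signal minus that member's mean over 28 arrays. It was 2.05, 2.06, 1.71, 1.52, 0.96 and 2.13 on P10 mutants 1 to 6. It was 0.16, -0.47, -0.30, -0.20, 0.12, -0.54, 2.37, -0.50, -0.36 and 0.28 on P10 controls 1 to 10. All P10 mutants therefore lay above every P10 control except control 7, which lay above all of them. The Gab1 signal of control 7, 11.10, was within the range of the other P10 controls. On P15 mutants 1 to 6 the level was 1.57, 0.91, -0.01, -1.58, -2.18 and -1.26, and on P15 controls 1 to 6 it was -1.68, 0.38, -1.81, -1.34, -1.58 and -1.92. The P15 mutants were split by slide: numbers 1 to 3, on slide 4, lay above numbers 4 to 6, on slide 3. Of the mutants on slide 3, number 5 lay below every P15 control, number 4 within the range of the controls, and number 6 above every P15 control but control 2. These are bulk samples, in which fewer muscle fibres and less RNA per fibre cannot be told apart.

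**Figure D1:**
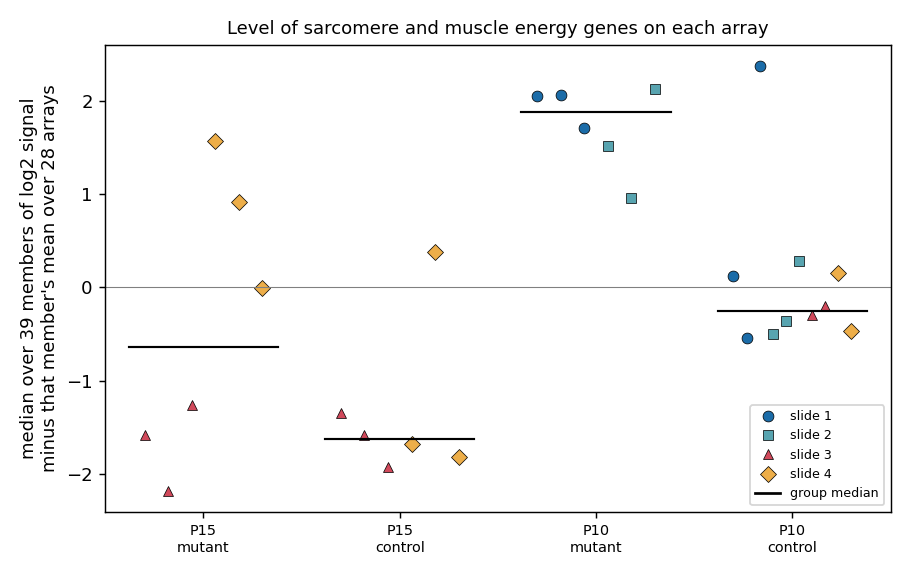
Level of the 39 tested members on each of the 28 arrays (y axis, log2, relative to each member's mean), by group, with colour and shape for the slide and a bar for the group median. P10 control 7 at 2.37 and P15 control 2 at 0.38 stand above the other controls of their ages, and the P15 mutants of slide 4 stand above those of slide 3.

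The number of members detected differed between the groups as well. P10 mutant arrays detected 35 to 39 of the 39 members and P10 control arrays 27 to 39. P15 mutant arrays detected 7 to 37 members, the 7 being those of P15 mutant 5, and P15 control arrays detected 11 to 31. Members detected on every array of a group numbered 34 in P10 mutants and 24 in P10 controls, and 7 in P15 mutants and 10 in P15 controls. 8 members were detected on no P15 control array, and 1 of them, Tnni1, on no P15 mutant array either. Since a member needed detection on 6 arrays to be tested, and 7 of the 39 had fewer than 6 detections outside the P10 mutants, these 7, Tnnc1, Ldb3, Myot, Cacng1, Casq1, Pygm and Trim63, passed the filter only with the help of the P10 mutant arrays.

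Members are set beside their promoters here because genes that are switched on together in muscle fibres are known to share short binding motifs near their start sites. RefSeq promoters of the assembly GRCm38.p6, from 250 bases before the start site to 50 after it, were found for 32 of the 45 members. Shown are those of a thin filament protein, its calcium sensor and a glycolytic enzyme, all 3 of them lower at P15 than at P10 in controls, each read 5′ to 3′ on the gene's strand, with capitals for 5 motifs searched on both strands. These were the E-box of myogenic factors, spelled CANNTG, the MCAT motif of the TEAD factors, spelled CATTCC, the core promoter element with the letters TATAAA, here called the TATA box, and, by name, the MEF2 motif and the CArG box of serum response factor. A position may belong to more than 1 motif.
Acta1 (chr8:123894726-123895025, minus strand): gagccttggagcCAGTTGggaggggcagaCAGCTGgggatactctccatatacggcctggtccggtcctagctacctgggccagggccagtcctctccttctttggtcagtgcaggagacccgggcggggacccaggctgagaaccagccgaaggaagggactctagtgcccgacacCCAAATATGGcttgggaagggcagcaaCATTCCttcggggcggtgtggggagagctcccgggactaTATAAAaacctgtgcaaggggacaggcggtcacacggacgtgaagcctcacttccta
Tnnc2 (chr2:164779685-164779984, minus strand): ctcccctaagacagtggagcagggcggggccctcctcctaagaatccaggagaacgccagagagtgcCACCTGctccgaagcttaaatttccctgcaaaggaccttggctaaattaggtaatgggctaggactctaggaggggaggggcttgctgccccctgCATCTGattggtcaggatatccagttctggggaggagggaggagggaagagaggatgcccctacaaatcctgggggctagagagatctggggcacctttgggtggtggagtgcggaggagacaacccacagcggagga
Pgam2 (chr11:5803747-5804046, minus strand): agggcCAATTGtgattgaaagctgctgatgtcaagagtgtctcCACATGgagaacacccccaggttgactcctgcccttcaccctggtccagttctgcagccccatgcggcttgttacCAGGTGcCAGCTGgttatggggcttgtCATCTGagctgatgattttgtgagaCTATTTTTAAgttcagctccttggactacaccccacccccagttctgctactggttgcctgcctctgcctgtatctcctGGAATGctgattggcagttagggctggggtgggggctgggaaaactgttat
The Acta1 promoter held 2 E-boxes, a CArG box, an MCAT motif and a TATA box, the Tnnc2 promoter 2 E-boxes, and the Pgam2 promoter 5 E-boxes, a MEF2 motif and, on the other strand, an MCAT motif. An E-box was present in 87.5% of the 32 members' promoters and in 72.1% of 27025 promoters, 1 for each gene symbol. The MEF2 motif was present in 12.5% of the members' promoters, those of Myoz2, Pgam2, Pvalb and Ttn, and in 3.26% of all promoters. The CArG box was present in 9.38% (Acta1, Ldb3 and Myom1) against 1.57%, the MCAT motif in 25% against 14.6% and the TATA box in 15.6% against 14.2%. These shares describe letters in a window, and no binding was measured.

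At 10 days the question was whether mutant skin differed from control skin. 23 of the 39 members were higher in P10 mutants and 0 were lower (limma, Benjamini-Hochberg adjusted p below 0.05 over 9045 genes), where 9.49% of all tested genes were higher and 9.36% lower. The median log2 difference, P10 mutant minus P10 control, was 1.55 over the members and -0.01 over all tested genes, and 34 members had an unadjusted p below 0.05. Of the 23, Ldb3, Myot, Cacng1, Casq1 and Pygm had passed the filter on dim probes only through the P10 mutants, where they were high. The filter thus favoured a difference, and their calls and folds are descriptions. Among the 32 members detected on at least 6 other arrays, 18 were higher and 0 lower. A fold against controls that were mostly not detected rests in part on background signal. With a term for the slide, the difference rests on slides 1 and 2. For 33 members all 6 mutants lay above the 9 P10 controls other than control 7, which held for 3.85% of all tested genes. Control 7 was set aside because it was high for these members, so this is a description and not a like comparison with all genes. Pygm, Casq1 and Cacng1 are among the 33. Control 7 lay above every mutant for 18 members. Without that array 32 members were higher and the median difference was 1.96, and without P10 control 6 they were 9 and 1.31. Leaving out P10 mutant 2, P10 control 5 or P10 mutant 6 left 15, 15 and 14 members. Within slide 1, which holds control 7, the median difference was 1.32 and 3 of 39 members had every mutant above every control, against 23.4% of all genes. Within slide 2 the median was 1.72 and 35 of 39 did, against 15.8% of all genes. Ldb3, Myot, Cacng1, Casq1 and Pygm are among the 35. The medians and counts over 39 members include the 7 that passed the filter only through the P10 mutants, and for those 7 they are descriptions.

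**Figure D2:**
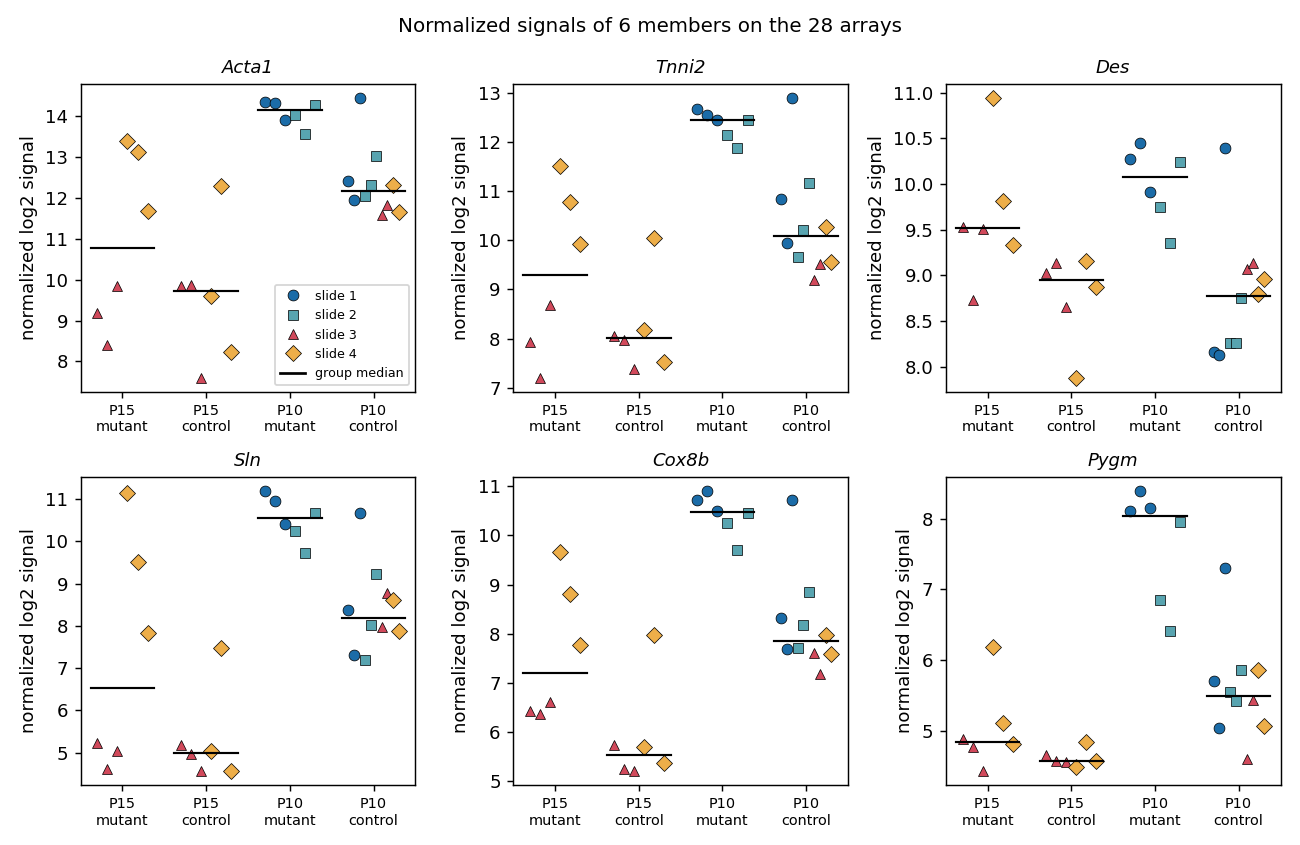
Normalized log2 signals (y axis) of Acta1, Tnni2, Des, Sln, Cox8b and Pygm on each array, by group, with the slide as colour and shape and the group median as a bar. In each panel P10 control 7 lies among or above the P10 mutants, and the P15 mutants of slide 4 have the highest signals of their group, apart from Des, where numbers 4 and 6 of slide 3 lie above number 3, and Pygm, where number 4 does.

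Among the 8 tested thin filament members, 2 were higher at P10, Tnni2 and Tnnt3. Acta1, the actin of skeletal muscle, had lowest, median and highest normalized log2 signals of 13.56, 14.15 and 14.32 on P10 mutant arrays against 11.95, 12.35 and 14.44 on the P10 controls of the same slides. All mutants lay above every control but control 7, which was the highest array. The difference was 2.58-fold (log2 1.37, SE 0.60) and did not pass the threshold, with an adjusted p of 0.113 in limma. Tnni2, the inhibitory troponin of fast fibres, had 11.88, 12.44 and 12.68 in mutants against 9.67, 10.53 and 12.91 in controls. It was 2.96-fold higher in mutants (log2 1.56, SE 0.47, adjusted p = 0.0203 in limma), with control 7 again above every mutant and the other controls below. Tnnt3, the fast tropomyosin-binding troponin, was 3.78-fold higher (log2 1.92, SE 0.60, adjusted p = 0.0266 in limma).

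Of the 4 tested members of the thick filament, M band and titin, 1 was higher. Titin, Ttn, the giant spring of the sarcomere, had 9.27, 10.23 and 10.48 on P10 mutant arrays against 7.39, 8.36 and 11.18 on P10 controls. Its control range ran past all mutants because of control 7, and the adjusted p of its log2 difference of 1.41 (SE 0.69) was 0.156 in limma. Mybpc1, the slow myosin-binding protein C, had 8.25, 8.87 and 9.29 in mutants against 6.11, 7.02 and 8.97 in controls. It was 3.19-fold higher in mutants (log2 1.67, SE 0.46, adjusted p = 0.0128 in limma), with control 7 above P10 mutants 3, 4 and 5 only. Myom1, a crosslinker of the M band, had a log2 difference of 0.97 on its probe with the highest mean signal, which did not pass (adjusted p = 0.0608 in limma).

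The Z-disc and attachment group had 8 of 10 tested members higher: Csrp3, Nrap, Tcap, Myoz2, Des, Myoz1, Ldb3 and Myot. Des encodes desmin, the intermediate filament that ties Z-discs together, and had 9.36, 10.07 and 10.45 on P10 mutant arrays against 8.13, 8.26 and 10.39 on P10 controls. All mutants lay above all controls but control 7, which lay above 5 of them. Desmin was 2.53-fold higher (log2 1.34, SE 0.33, adjusted p = 0.00523 in limma). Csrp3, the muscle LIM protein, Nrap, a nebulin-related anchoring protein, and Tcap, the titin cap, were 3.84-fold, 3.45-fold and 3.42-fold higher, with adjusted p-values between 0.0171 and 0.0266 in limma. The alpha-actinins Actn2 and Actn3, which crosslink thin filaments in the disc, had log2 differences of 1.73 and 1.48. On the probe with the highest mean signal they did not pass (adjusted p of 0.0635 and 0.0693 in limma).

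Of 6 tested calcium-handling members 3 were higher: Casq1, Cacng1 and Sln. Atp2a1, the calcium pump of fast fibres, had 11.92, 12.70 and 13.05 on P10 mutant arrays against 10.17, 10.85 and 13.15 on P10 controls, where control 7 was the highest array. Its log2 difference of 1.45 (SE 0.61) had an adjusted p of 0.0941 in limma. Casq1, the calcium store protein calsequestrin of fast fibres, was detected on 6 of 6 mutants and 1 of 6 controls. Its signals were 6.41, 7.17 and 7.70 in mutants against 4.86, 5.18 and 7.79 in controls, the 7.79 being control 7. It was 2.97-fold higher (log2 1.57, SE 0.33, adjusted p = 0.00168 in limma), with the limit that it passed the filter through the mutants. Sln encodes sarcolipin, a small inhibitor of the calcium pump, and had 9.73, 10.55 and 11.19 in mutants against 7.20, 8.19 and 10.67 in controls, with all controls but control 7 below every mutant. It was 4.22-fold higher (log2 2.08, SE 0.69, adjusted p = 0.0352 in limma), the highest fold among the 39 members in this comparison. Cacng1, a subunit of the muscle calcium channel, was detected on 6 of 6 mutants and 2 of 6 controls and was 2.40-fold higher, with the same limit. Pvalb, the calcium buffer parvalbumin, and Ryr1, the release channel, had log2 differences of 1.55 and 1.18 with adjusted p-values of 0.0519 and 0.054 in limma. For Ryr1 this is the probe with the highest mean signal.

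Energy metabolism was the group with 8 of 9 tested members higher, all but Ampd1, a deaminase of the purine cycle (log2 0.92, adjusted p = 0.165 in limma). Eno3, the muscle enolase of glycolysis, had 10.09, 11.09 and 11.34 on P10 mutant arrays against 8.15, 8.85 and 11.61 on P10 controls, with control 7 above every mutant. It was 3.33-fold higher (log2 1.73, SE 0.47, adjusted p = 0.0109 in limma). Pygm, the glycogen phosphorylase of muscle, was detected on 6 of 6 mutants and 2 of 6 controls and had 6.41, 8.03 and 8.39 in mutants against 5.04, 5.62 and 7.30 in controls. Its fold was 3.57 (log2 1.84, SE 0.30) and its adjusted p, 0.000126 in limma, was the smallest of the members, but this gene too passed the filter only through the mutants. Among the 32 members that did not, the smallest was that of Cox8b (0.00473 in limma). For Pygm control 7 lay above P10 mutants 4 and 5 and below the other 4. For Cox8b control 7, at 10.72, lay above P10 mutants 3, 4, 5 and 6 and below P10 mutants 1 and 2. Cox6a2 and Cox8b, muscle subunits of cytochrome c oxidase, Ckm and Ckmt2, the cytosolic and mitochondrial creatine kinases, Mb, myoglobin, and Pgam2, a phosphoglycerate mutase, were 2.88-fold to 3.89-fold higher.

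Of the remaining members, Ppp1r27, a regulatory subunit of protein phosphatase, was detected on 6 of 6 mutants and 3 of 6 controls and had 7.82, 8.46 and 8.89 in P10 mutants against 5.41, 6.14 and 8.59 in P10 controls. It was 3.96-fold higher (log2 1.98, SE 0.50, adjusted p = 0.00652 in limma), with control 7 within the range of the mutants and the other controls below it. Trim63, the ubiquitin ligase MuRF1 of muscle protein breakdown, differed by a log2 of 0.29 (adjusted p = 0.465 in limma). Calls for Casq1, Cox8b, Des, Eno3, Ldb3, Myoz1, Myoz2, Ppp1r27 and Pygm held whichever of the 28 arrays was left out, but for Casq1, Ldb3 and Pygm, which passed the filter through the P10 mutants, this does not count as support. Those for Cacng1, Mb, Mybpc1, Tcap and Tnni2 were lost without P10 control 6, and that for Ckmt2 without P10 control 6 or P10 mutant 6. The calls for Ckm, Cox6a2, Csrp3, Myot, Nrap, Pgam2, Sln and Tnnt3 were each lost by leaving out any 1 of 5 to 8 arrays, among them P10 mutants 2 and 6 and P10 controls 5 and 6 for all 8 genes.

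**Figure D3:**
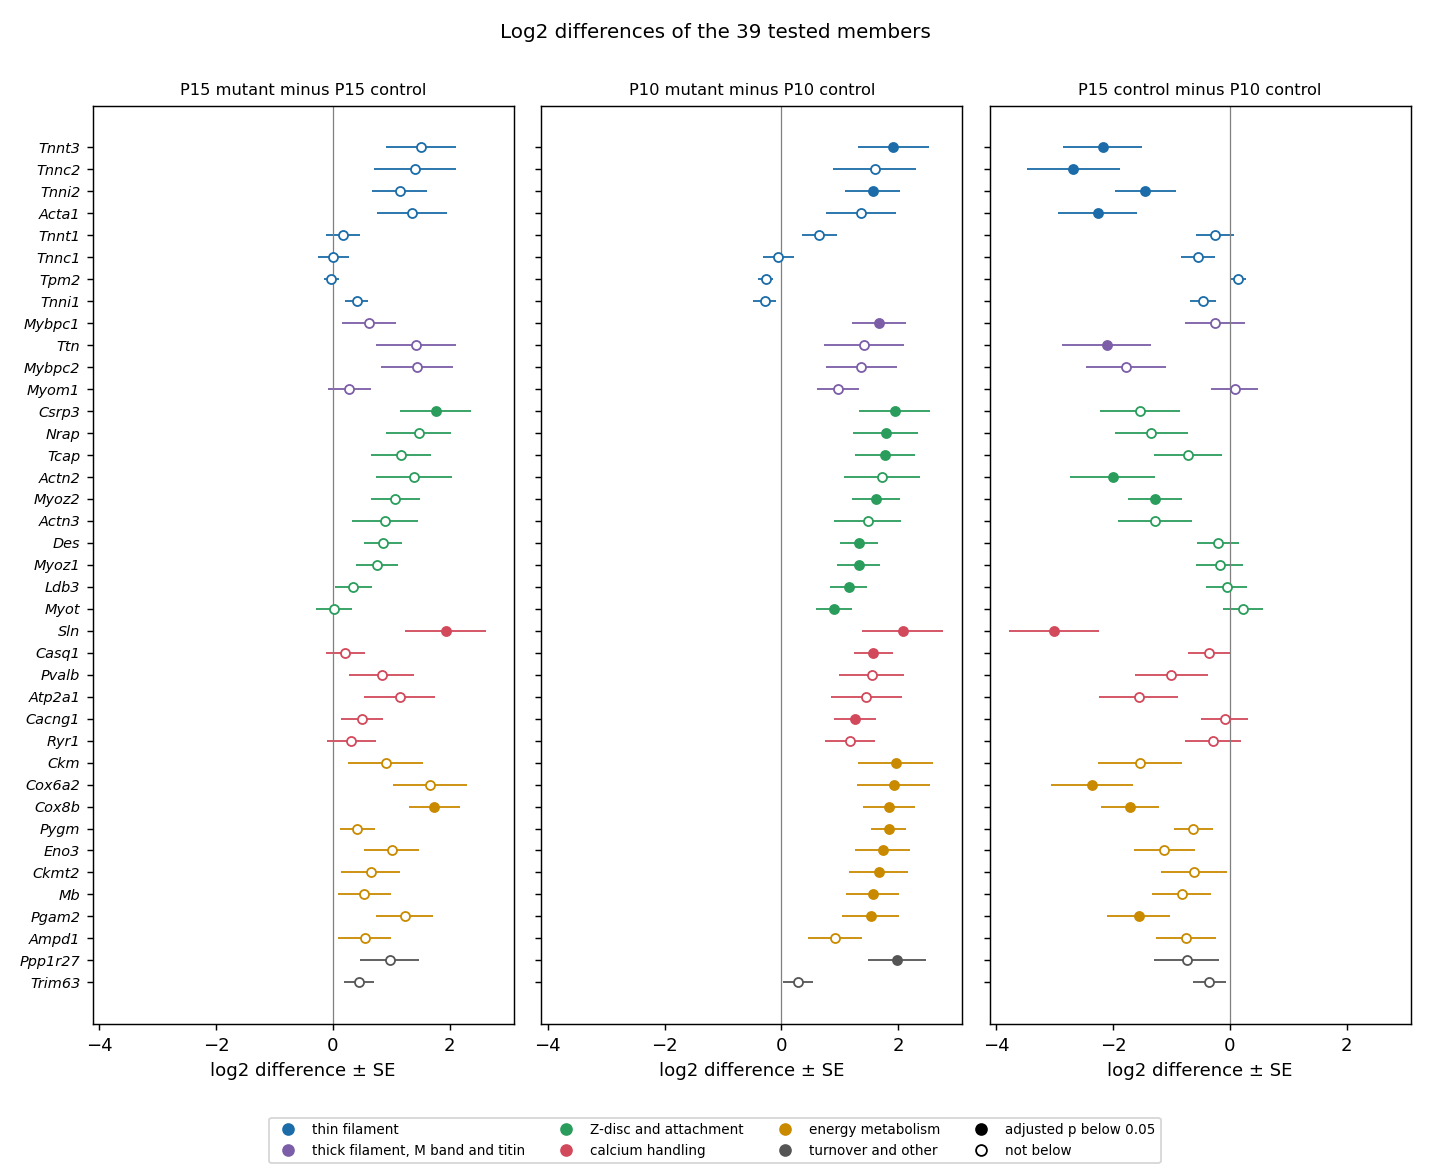
Log2 differences with SE (x axis) of the 39 tested members, by role, for mutant minus control at P15 and at P10 and for P15 control minus P10 control, filled where the adjusted p was below 0.05. Z-disc and energy members carry most filled points at P10, 3 are filled at P15, and 11 are filled on the negative side with age.

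At 15 days 3 members were higher in mutants and 0 were lower: Cox8b, Csrp3 and Sln, where 9.68% of all tested genes were higher and 10.3% lower. The median log2 difference, P15 mutant minus P15 control, was 0.90 over the members and 0.02 over all genes, and 17 members had an unadjusted p below 0.05. On slide 4 the median difference was 1.93, and 5 of 39 members had every mutant above every control, against 16.2% of all genes. On slide 3 the median was 0.01, and 3 of 39 did, against 12.4% of all genes. The count was 10 without P15 control 2, 12 without P15 mutant 5, 8 without P10 control 7 and 7 without P15 mutant 4, and 1 without P15 mutant 1 or 2 or P15 control 1, 5 or 6.

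Cox8b had lowest, median and highest signals of 6.35, 7.19 and 9.67 on P15 mutant arrays against 5.21, 5.52 and 7.98 on P15 controls. Every mutant lay above every control but control 2, and the gene was detected on 5 of 6 mutants and 1 of 6 controls. It was 3.34-fold higher in mutants (log2 1.74, SE 0.44, adjusted p = 0.00641 in limma), and the call held without any single array. Csrp3 had 4.87, 6.59 and 10.47 in mutants against 4.59, 4.93 and 7.65 in controls, and Sln had 4.61, 6.53 and 11.15 against 4.57, 4.99 and 7.47. For both, the 3 mutants of slide 4 held the high values and those of slide 3 lay among the controls, and the genes were detected on 3 of 6 mutants and 1 of 6 controls. Csrp3 was 3.39-fold higher (log2 1.76, SE 0.61, adjusted p = 0.0423 in limma) and Sln 3.81-fold higher (log2 1.93, SE 0.69, adjusted p = 0.0488 in limma). For Csrp3 and Sln the log2 differences were 0.10 and 0.06 within slide 3 and 3.42 and 3.80 within slide 4. With most controls not detected, these folds and that of Cox8b depend in part on background signal. Csrp3 lost its call without P15 mutant 1 or 2 or P15 control 1, 3, 5 or 6, and Sln without any 1 of 18 of the 28 arrays, those 6 included. Acta1 had 8.40, 10.76 and 13.39 in P15 mutants against 7.61, 9.72 and 12.29 in P15 controls, a log2 difference of 1.36 (SE 0.60) with an adjusted p of 0.113 in limma. Its 3 mutants of slide 4 had 13.39, 13.10 and 11.68, against 9.59, 12.29 and 8.24 in the 3 controls beside them, while on slide 3 the mutants had 9.18, 8.40 and 9.84 and the controls 9.85, 9.86 and 7.61. Des had 8.73, 9.52 and 10.94 in P15 mutants against 7.88, 8.95 and 9.16 in P15 controls (log2 0.86, SE 0.33, adjusted p = 0.0631 in limma). Pygm was detected on 1 of 6 P15 mutants and on no P15 control, with an adjusted p of 0.354 in limma, and Casq1 likewise, with an adjusted p of 0.706.

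All 3 members called at P15 were also called at P10. The difference between the 2 effects, P15 effect minus P10 effect, passed for 0 of 39 members in limma, where 3.9% of all genes passed. 3 members, Pygm, Casq1 and Tnni1, had an unadjusted p below 0.05. The lowest adjusted p was 0.0593 in limma, for Pygm, whose log2 effect was 1.42 lower at P15 (SE 0.43). Pygm and Casq1 passed the filter on dim probes only through the P10 mutants, where they were high, so their differences between the effects are descriptions. Tnni1 was detected on 0 P15 arrays. The count was 2 without P10 control 7 and 1 without P15 mutant 1, P15 control 3 or P10 mutant 5. For Acta1 the difference was -0.01 (SE 0.85), an SE too wide to show whether the effects are alike.

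With age in controls, 11 members were lower at P15 than at P10 and 0 were higher, where 10.6% of all genes were lower and 11.6% higher. The median log2 difference, P15 control minus P10 control, was -0.83 over the members and 0.01 over all genes. This contrast rests on slides 3 and 4, which hold P10 controls 1 to 4. On slide 3 the median was -1.08 and 28 of 39 members had every P15 control below every P10 control, against 25.6% of all genes. On slide 4, which holds P15 control 2, it was -0.83 and 4 of 39 did, against 22.1%. Without P10 control 3 the count was 1, without P10 control 4 it was 2, and without P10 control 1 or P15 control 1, 3 or 6 it was 6. Without P15 mutant 3, any single P10 mutant, or P10 control 9 or 10 it was 7. Without P15 control 2 or P10 control 7 it was 12. Of the 11 calls, that for Sln held whichever array was left out, while those for Actn2, Myoz2, Tnni2 and Ttn were lost by leaving out any 1 of 17 or 18 arrays.

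Sln had 4.57, 4.99 and 7.47 on the 6 P15 control arrays against 8.60, 7.88, 7.96 and 8.79 on P10 controls 1 to 4. It was detected on 1 of 6 and 4 of 4, and every P15 control was below each of these 4 P10 controls. With 5 P15 controls not detected, the fold depends on their background signal; as measured, it was 8.06-fold lower at P15 (log2 -3.01, SE 0.77, adjusted p = 0.00637 in limma). Cox8b had 5.21, 5.52 and 7.98 against 7.98, 7.58, 7.61 and 7.18. Detected on 1 of 6 P15 controls, it has the same limit, and as measured it was 3.29-fold lower (log2 -1.72, SE 0.50, adjusted p = 0.014 in limma). Only P15 control 2 reached the P10 range. Tnnc2, the calcium sensor of fast fibres, had 6.04, 7.82 and 10.76 against 11.06, 10.17, 10.19 and 10.33 and was 6.40-fold lower (log2 -2.68, SE 0.79, adjusted p = 0.0158 in limma). Acta1 had 7.61, 9.72 and 12.29 against 12.30, 11.64, 11.58 and 11.83 and was 4.80-fold lower (log2 -2.26, SE 0.67, adjusted p = 0.0165 in limma). In both genes P15 control 2 lay among the P10 controls and the other 5 lay below them.

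Cox6a2 had 4.66, 5.85 and 8.86 on P15 control arrays against 8.77, 8.08, 8.28 and 8.70 on P10 controls and was 5.15-fold lower (adjusted p = 0.0164 in limma). Tnnt3 had 4.58, 5.81 and 8.38 against 8.65, 7.66, 8.18 and 8.07 and was 4.52-fold lower (adjusted p = 0.0214 in limma). P15 control 2 was the highest P15 control in both. Pgam2, Tnni2, Actn2 and Ttn were 2.95-fold, 2.73-fold, 4.01-fold and 4.32-fold lower, with adjusted p-values from 0.038 to 0.0489 in limma. Tnni2 had 7.38, 8.01 and 10.05 against 10.27, 9.56, 9.20 and 9.52, and Ttn had 4.60, 5.97 and 9.15 against 8.71, 8.05, 7.97 and 8.55. Here too 5 P15 controls lay below all 4 P10 controls and P15 control 2 did not. Pgam2 had 5.41, 5.65 and 8.40 against 8.24, 7.41, 7.64 and 7.37, and Actn2 had 4.82, 5.86 and 8.72 against 8.52, 7.57, 7.93 and 8.55. Cox6a2, Tnnt3 and Actn2 were each detected on 2 of 6 P15 controls, Pgam2 on 1 of 6 and Ttn on 3 of 6. The folds of these genes therefore depend in part on background signal. Myoz2, a calcineurin-binding Z-disc protein of slow fibres, was detected on 0 of 6 P15 controls and 2 of 4 P10 controls, so only a bound could be given and that bound is under 1-fold. Its measured means were 4.61 ± 0.23 in P15 controls and 5.89 ± 0.48 in P10 controls (SD, n = 6 and 4), with an adjusted p of 0.0479 in limma. Des, with a log2 difference of -0.20 (SE 0.36), and Myom1, with 0.08 (SE 0.41), did not pass, with adjusted p-values of 0.74 and 0.915 in limma.

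Fast and slow fibres use sister genes for troponin, myosin-binding protein C and myozenin, and 9 members were listed as fast and 5 as slow. At P10 the median log2 difference was 1.55 over the fast members and 0.65 over the slow ones. In mutants 4 of 9 and 2 of 5 were higher, where 9.49% of all tested genes were. Casq1, among the 4, and Tnnc1, among the slow members, had passed the filter only through the P10 mutants. At P15 the medians were 1.14 and 0.41, with 0 calls in either list. With age they were -1.45 and -0.46, with 3 of 9 and 1 of 5 lower in P15 controls, where 10.6% of all tested genes were. The difference between fast and slow members was not tested. The slow troponins Tnnc1, the slow and cardiac calcium sensor, and Tnni1 had signals near background and were detected on 8 and 12 of 28 arrays, so a difference in them may not be detectable. Tnnt1 was detected on 26 arrays.

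Tnnc2 had 12.41, 12.997 and 13.25 on P10 mutant arrays against 10.27, 10.88 and 13.64 on P10 controls (log2 1.60, SE 0.71, adjusted p = 0.117 in limma), while Tnnc1 had 5.29, 5.66 and 5.93 against 5.15, 5.62 and 6.78 (log2 -0.05, adjusted p = 0.919). Mutants were above all controls but control 7 for the fast gene, and the groups overlapped for the slow one. Tnni1 had 5.58, 5.73 and 6.25 in mutants against 5.92, 6.02 and 6.49 in controls, a log2 difference of -0.29 (SE 0.20, adjusted p = 0.342 in limma), where Tnni2 was higher. Tnnt3 had 10.57, 11.53 and 11.75 against 7.94, 9.19 and 11.44, and Tnnt1 had 7.60, 7.67 and 8.03 against 6.75, 6.94 and 7.95 (log2 0.65, SE 0.29, adjusted p = 0.124 in limma). In both, control 7 was the only control within the range of the mutants. In the other 2 pairs the slow gene passed at P10. Mybpc2, the fast myosin-binding protein C, had 7.95, 8.99 and 9.43 against 6.48, 7.12 and 10.20 (log2 1.37, SE 0.61, adjusted p = 0.121 in limma), beside 3.19-fold for Mybpc1. Myoz1 had 7.68, 8.23 and 8.33 against 5.84, 6.59 and 8.76 and was 2.50-fold higher (adjusted p = 0.0119 in limma). Myoz2 had 7.74, 8.36 and 8.64 against 5.84, 6.19 and 8.61 and was 3.08-fold higher (adjusted p = 0.00765 in limma). For both myozenins all mutants lay above every control but control 7. With age in controls Myoz1 had a log2 difference of -0.17 (SE 0.40, adjusted p = 0.803 in limma).

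**Figure D4:**
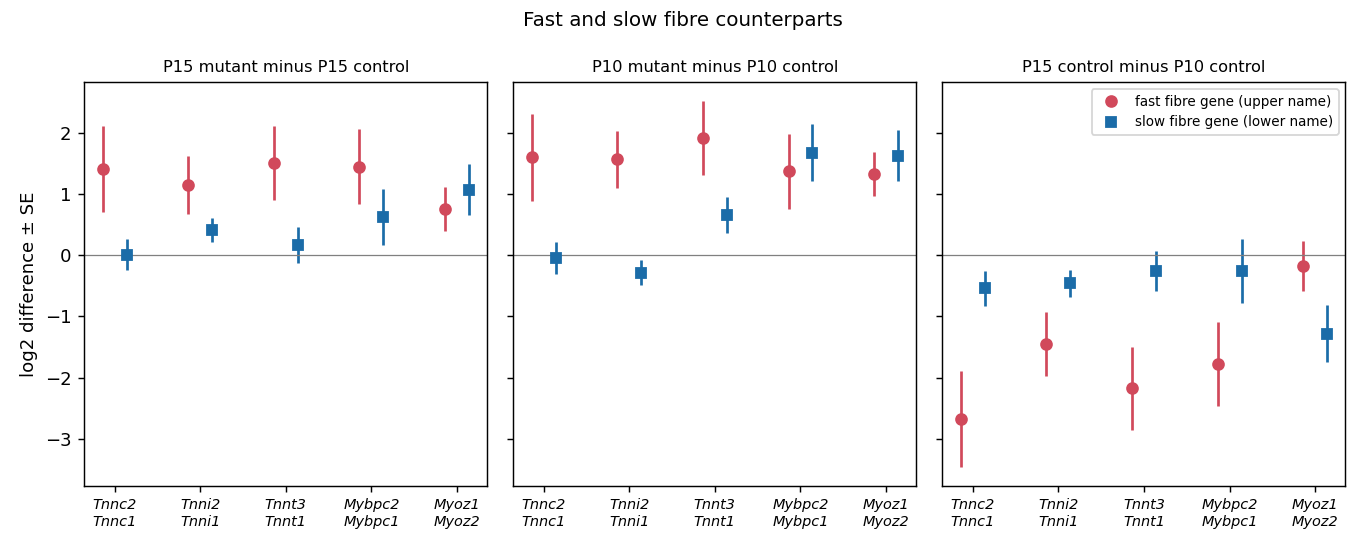
Log2 differences with SE (y axis) of 5 pairs of fast and slow fibre genes for mutant minus control at P15 and at P10 and for P15 control minus P10 control. The fast troponins lie above 1 at P10 and below -1 with age, while the slow troponins lie within 0.7 of 0; Mybpc1 and Myoz2 lie near their fast counterparts at P10.

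The range over the 28 arrays was widest for Tnnc2, Tnnt3 and Cox6a2, at 7.61, 7.17 and 6.99 on the log2 scale, and narrowest for Tnnc1, Tnni1 and Tpm2, at 2.06, 1.78 and 1.08. Tpm2, the beta tropomyosin of thin filaments, is expressed in muscle fibres and, as other splice forms, in smooth muscle and fibroblasts. Its 2 tested probes disagreed. The probe with the higher mean signal, ILMN_2487170, stood for the gene and had 9.77, 10.24 and 10.57 on P10 mutant arrays against 10.30, 10.40 and 10.85 on P10 controls of the same slides (log2 -0.27, SE 0.13, adjusted p = 0.15 in limma). The groups overlapped, and the age difference was 0.14. The other probe, ILMN_2482209, was detected on 27 of 28 arrays and had 11.31, 12.55 and 13.06 in P10 mutants against 8.92, 10.05 and 12.20 in P10 controls. In an added fit on all 12834 tested probes its log2 difference was 2.08 (SE 0.61, adjusted p = 0.0199 in limma) at P10 and -2.07 (SE 0.68, adjusted p = 0.0311 in limma) with age. Its range was 6.96, and P10 control 7 was again the highest control. Which transcripts each probe detects was not tested. Of the 10 members with several tested probes, 5 had every probe higher at P10 in the fit on all tested probes. Another 4, Actn3, Myom1, Ryr1 and Tpm2, had some, though they did not pass in the fit by gene, and 1, Ampd1, had none. At P15 Csrp3 and Myom1 had some probes higher but not all, and 8 members had none. No member had probes that passed in opposite directions.

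**Figure D5:**
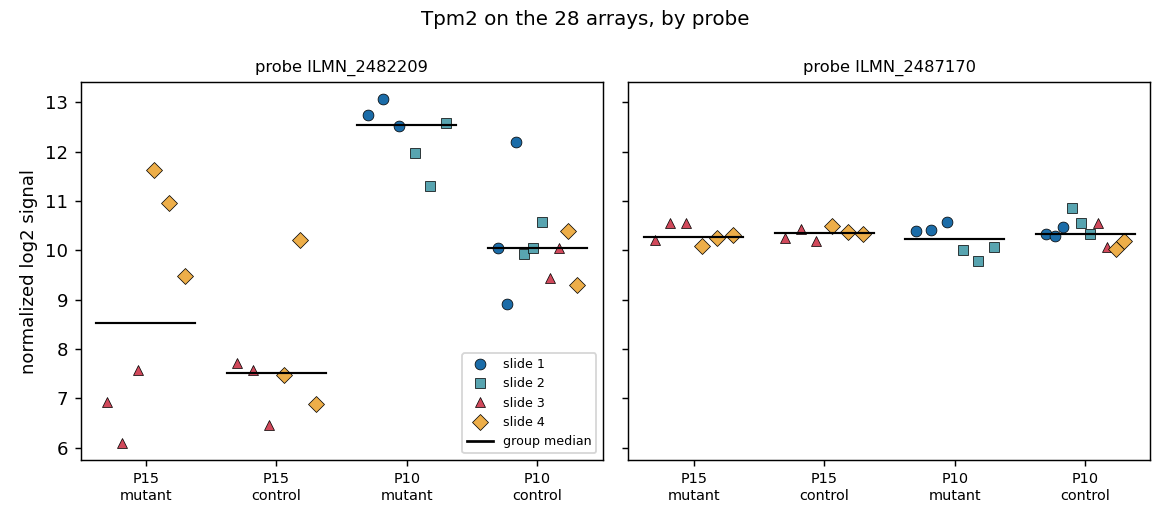
Normalized log2 signals (y axis) of 2 Tpm2 probes on the 28 arrays, by group, with the slide as colour and shape and the group median as a bar. Probe ILMN_2482209 runs from 6.10 to 13.06, and probe ILMN_2487170 stays between 9.77 and 10.85.

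Genes of striated muscle outside the list were compared in the same fit. Of all tested genes 9.49% were higher and 9.36% lower at P10, and 10.6% were lower with age in controls. A single call in a list of a few genes is not set apart from these shares. Of 9 tested further sarcomere and Z-disc genes 3 were higher at P10, Fhl1 (log2 0.87), Smtnl1 (1.32) and Pdlim3 (1.06), and 0 were lower, and of 7 calcium and membrane genes 4 were, Bin1 (1.11), Casq2 (1.36), Sgca (1.28) and Hrc (1.43). Of 10 other muscle energy genes 6 were higher, Slc2a4 (0.81), Cox7a1 (0.98) and Fabp3 (1.72) among them, and 1 was lower. The lower one, Ppargc1a, is a coactivator of mitochondrial genes that other tissues also express. It fell by 0.96 on the log2 scale at P10 (adjusted p = 0.0012 in limma) and by 0.82 at P15. For the higher genes too, bulk skin does not show which cells gave the signal. Of the junction genes, Chrna1, an acetylcholine receptor subunit, was higher (1 of 3 tested), and of the myogenic regulators Myf6 was (1 of 3 tested, log2 1.30). Of 5 tested myosin chains 2 were higher at P10, Myh4 (2.13) and Mylpf (1.71), and 3 were lower with age, with the neonatal chain Myh8, named after its values were seen, at a log2 difference of -5.13 and the adult chain Myh4 at 0.19 (adjusted p of 2.52e-05 and 0.862 in limma).

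Markers of other cells differed between the same groups, and their part in the members' differences was not tested. Over all tested genes the shares higher and lower were 9.49% and 9.36% at P10 and 9.68% and 10.3% at P15. With age in controls 10.6% were lower. A single call in a short list of markers is not set apart from these shares. At P10, 6 of 8 tested adipocyte markers and 11 of 12 dermal fibroblast markers were higher in mutants, for example Adipoq (log2 0.90) and Plin4 (0.85) and Col3a1 (1.78) and Lum (1.01), and 0 were lower. The adipocyte level per array, computed like that of the members, ran from 0.53 to 1.31 in P10 mutants and from -0.10 to 0.72 in the P10 controls of the same slides, and the fibroblast level from 0.49 to 1.17 and from 0.00 to 0.47. On P10 control 7 these levels were 0.72 and 0.47, the highest among P10 controls. With age in controls 5 of 8 adipocyte and 8 of 12 fibroblast markers were lower. At P15, 0 of 8 adipocyte markers were higher and 2 were lower in mutants, and 3 of 12 fibroblast markers were higher and 1 was lower. Of 9 tested keratinocyte markers 0 were higher or lower at P10. Their level ran from -0.28 to 0.08 in P10 mutants and from -0.37 to -0.09 in the P10 controls of the same slides. Smooth muscle markers had 0 of 6 higher and 1 lower at P10, Tagln, which fell by 0.73 on the log2 scale, and 2 higher and 1 lower at P15, with Tagln higher by 0.71. Of the cardiac markers 1 of 7 passed the filter on dim probes, Myl4, an atrial light chain also made by young skeletal muscle, and it was higher in P10 mutants (1.36). Brown adipocyte markers had 0 of 3 higher and 1 lower, Cidea. Endothelial markers had 0 of 7 higher and 1 lower, Tek, and Schwann cell and blood cell markers had 1 of 3 higher, Pmp22, and 1 of 3 lower, Slc4a1.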

How the data were processed

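Total RNA of 28 dorsal skin samples was labelled as biotinylated cRNA, per the labels' protocols, and hybridised to Illumina BeadChips. The authors deposited a raw signal intensity and a detection p-value per probe and array, per the file headers, and a second table of processed intensities; the submitters' processing notes name GenomeStudio without a version, and the steps behind the processed values are not given here. Of the processed values 25.6% were below 0, and the column medians were 26.5 to 27.2.

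From the raw intensities, neqc in limma 3.58.1 (R 4.3.3) corrected the background with the detection p-values, added an offset of 16, quantile normalized the arrays and took log2. Probes detected at p below 0.01 on at least 6 arrays were kept (12834 of 25697), and the probe with the highest mean stood for each of 9045 genes, so other probes of a gene enter only where named. A linear model with group and slide terms, fitted on all arrays, gave differences, SE on the log2 scale and Benjamini-Hochberg adjusted p-values over all 9045 genes, with 0.05 as the threshold. Levels are normalized log2 signals and are compared within a probe only. The fit was tested on simulated data. The members, the comparison lists and the tests were chosen with earlier results of these data known. Values by group are given for the brightest member and the member with the smallest P10 p-value of each role, for 5 fast and slow pairs, and for up to 10 members past the threshold at P15 and with age; the members of widest and narrowest range are named, and from each other list up to 4 genes with the smallest P10 p-value. The fit on all probes was added after seeing the data, as were the alternatives for the fast and slow medians. Figures were drawn with matplotlib 3.10.9.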

Additional observations from a re-analysis of the deposited data

Results flagged for a closer look

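An array stood apart from the others of its group in 50 of 160 sets of values, a set being 1 member, or the level of all members, in 1 of 4 groups. The measure is the gap between the most extreme array and its neighbour as a share of the group's whole range, set against Dixon's critical value for the number of arrays; chance gives about 1 in 20.

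P10 control 7 was the highest of the 10 P10 controls, by a share of the range given in brackets, for Acta1 (0.495), Tnnc2 (0.57), Tnni2 (0.471), Tnnt1 (0.485), Mybpc1 (0.485), Mybpc2 (0.684), Ttn (0.536), Actn3 (0.595), Csrp3 (0.511), Des (0.556), Ldb3 (0.58), Myot (0.486), Myoz1 (0.475), Myoz2 (0.487), Nrap (0.52), Tcap (0.507), Atp2a1 (0.572), Cacng1 (0.567), Casq1 (0.687), Pvalb (0.571), Ampd1 (0.682), Ckm (0.635), Ckmt2 (0.548), Cox6a2 (0.512), Cox8b (0.531), Eno3 (0.645), Mb (0.679), Pgam2 (0.513), Pygm (0.536), Ppp1r27 (0.532) and the member level (0.718). The members share this array, so these are not separate observations.

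P15 control 2 was the highest of the 6 P15 controls for Tnni2 (0.703), Mybpc2 (0.89), Csrp3 (0.641), Ldb3 (0.692), Myoz1 (0.815), Nrap (0.723), Cacng1 (0.827), Casq1 (0.786), Sln (0.786), Ampd1 (0.781), Ckm (0.664), Ckmt2 (0.67), Cox8b (0.807), Eno3 (0.758), Pgam2 (0.781), Ppp1r27 (0.706) and the member level (0.748). In the other 2 sets an array was low: P10 mutant 5 for Ckm (0.669) and P15 control 1 for Tnnt1 (0.71). The cause was not tested for any of these arrays, and the counts without P10 control 7 and P15 control 2 are given beside the comparisons.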

How the results depend on the processing

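Alternatives kept the direction of the median difference in every comparison. Each count below is of all members called in that setting, which need not be those called in the main fit. The share of all genes called in each setting is not set beside it, so the counts are descriptions. The members higher at P10 (23) numbered 15 with no filter on dim probes, 4 of 7 among probes detected on all arrays, 35 with arrays weighted by quality, 7 on slide 1 alone and 35 on slide 2 alone, where 34 were higher and 1 was lower. Of the 23, only 3 were among the 7 tested with detection on all arrays. Those higher at P15 (3) numbered 1 with the authors' processed values, no filter, no slide term or slide 3 alone. They numbered 5 with median scaling or no background correction. With detection on all arrays the P15 count was also 1, but Cox8b, Csrp3 and Sln were not tested there. The P15 median was 0.0066 on slide 3 alone and 1.93 on slide 4 alone. Those lower with age (11) numbered 6 with no filter, 2 among probes detected on all arrays, 20 with no slide term, 7 with weighted arrays and 0 on slide 4 alone. For the difference between the ages (0) the count was 1 with the processed values or slide as a random block and 2 with median scaling or weighted arrays. The cause was not tested, except that detection on all arrays leaves 7 members to test; the fast and slow medians could not be computed there. Median scaling moved the median of all genes in the age comparison to -0.226.

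Replicate numbers were not taken as pairs: correlations of same-numbered deviations ran from -0.20 to 0.40. With a replicate block the counts were 0 at P10, 5 at P15 and 0 with age, the P10 median was 0.37, and Csrp3 (-0.42), Ldb3 (-0.18) and Tcap (-0.12) changed sign at P10; numbers 7 to 10 occur on P10 control arrays only.

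Without each array in turn, the P10 count ran from 9 to 32, its median from 1.31 to 1.96 and its fast minus slow difference from 0.69 to 1.15. At P15 these ran from 1 to 12, from 0.59 to 1.17 and from 0.29 to 1.09. With age they ran from 1 to 12, from -1.16 to -0.61 and from -1.26 to -0.66. The difference count ran from 0 to 2.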
